A study of Rattus norvegicus with 7 samples.

Results

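The cluster of miR-322, miR-503 and miR-351 is a group of microRNAs (miRNAs) encoded close together on the rat X chromosome. The members were the 6 mature miRNAs rno-miR-322-5p, rno-miR-322-3p, rno-miR-503-5p, rno-miR-351-5p, rno-miR-542-3p and rno-miR-450a-5p, taken by exact name from the array's annotation. All 6 were on the array, out of 719 miRNAs, and 4 of them gave a signal above background. The material was rat primary skeletal muscle cells (RSkMC), grown from limb muscle of newborn rats and cryopreserved at the second passage. Every culture was collected on day 11 of differentiation in medium with 2% horse serum. The control group was 3 untreated samples, and the IL-6 group was 4 samples kept with recombinant interleukin-6 at 1 ng/ml over the differentiation, each hybridised to its own 1-colour array. The titles and the series design set the groups, while the growth protocol, written alike for all 7 samples, mentions IL-6 for the controls as well. Whether the replicates were separate cultures is not stated, so the spread behind each p-value may be technical. In such bulk samples, fewer cells of a type and less RNA per cell cannot be told apart.

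A miRNA is cut from a hairpin precursor that can yield a mature strand from either arm, 5p or 3p, and its seed, bases 2 to 8, is the main determinant of which mRNAs it represses. In mouse myoblasts miR-322 and miR-503 rise as cells leave the cell cycle to fuse, and both repress the phosphatase Cdc25A, which drives cell division. Human miR-424 is the counterpart of rodent miR-322. IL-6 is a cytokine that contracting muscle releases and that acts through the transcription factor STAT3. The design held no undifferentiated cells, so a rise of the cluster in differentiation could not be measured here.

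The mature sequences are shown because seeds divide the members by the mRNAs they can pair with. They are RefSeq sequences of assembly GRCr8, all 6 members matched, and capitals mark the seed.
rno-miR-322-5p: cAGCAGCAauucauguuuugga
rno-miR-503-5p: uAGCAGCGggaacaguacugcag
rno-miR-16-5p (no member, on chromosome 2): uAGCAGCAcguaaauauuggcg
rno-miR-351-5p: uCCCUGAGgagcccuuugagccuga
rno-miR-125b-5p (no member, on chromosome 11): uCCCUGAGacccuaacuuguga
rno-miR-322-3p: aAACAUGAagcgcugcaaca
rno-miR-542-3p: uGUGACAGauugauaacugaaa
rno-miR-450a-5p: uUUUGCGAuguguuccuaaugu
The seed of miR-322-5p was identical to that of miR-16-5p and of 3 other mature rat miRNAs in the table, miR-15b-5p, miR-195-5p and miR-497-5p. miR-503-5p shared 6 bases from base 2 with miR-322-5p and differed at the last seed base. miR-351-5p had the seed of miR-125a-5p and miR-125b-5p. The seeds of miR-322-3p and miR-542-3p were found in no other mature form of the table, and that of miR-450a-5p was found only in miR-450b-5p, whose level was not analysed here.

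The hairpins lie on the minus strand of the X chromosome, chrX:137720933-137726241 of GRCr8, a span of 5309 bases with 6 annotated hairpins. In the direction of transcription the order is Mir322, Mir503, Mir351, Mir542, Mir450b-1 and Mir450a1. Mir503 begins 315 bases after the start of Mir322 and Mir351 begins 1045 bases after it, and all 3 fall inside the long non-coding RNA gene LOC102550366. Mir542 begins 3987 bases and Mir450a1 5218 bases after that start, outside the annotated long non-coding RNA. The nearest other annotated genes are Hprt1, a purine salvage enzyme, and Plac1, a placental gene. The Mir322 hairpin is shown because both of its arms were measured, with the 5p arm and then the 3p arm in capitals.
Mir322 hairpin, chrX:137726147-137726241, minus strand: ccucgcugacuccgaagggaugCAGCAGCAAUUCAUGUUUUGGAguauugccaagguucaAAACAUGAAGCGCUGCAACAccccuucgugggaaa

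**Figure D1:**
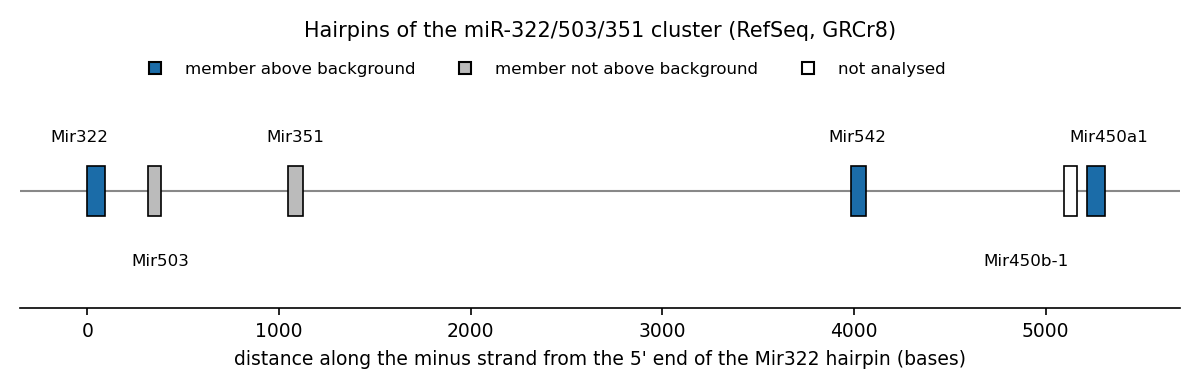
Positions of the 6 annotated hairpins, in bases from the 5′ end of Mir322 along the minus strand. Blue boxes had a member above background, grey boxes (Mir503 and Mir351) had members not above background, and the white box was not analysed; Mir542 starts 3987 bases and Mir450a1 5218 bases from Mir322.

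The members had 14 probes, with up to 10 spots each on an array. Each probe was complementary to a stretch that runs to the 3′ end of its miRNA. For miR-322-5p and miR-542-3p that stretch began at base 2 or 3 and so covered nearly the whole miRNA. The signal used is Feature Extraction's processed signal, a background-subtracted brightness in intensity units with no scaling between arrays. Both probes of miR-322-5p were well above background on all 68 spots kept, with array means from 54.8 to 107 on 1 and from 84.2 to 162 on the other. The other measured members had 1 usable probe each. For these the 2 probes of a miRNA differ by a single base at the probe's 3′ end, shown here in capitals.
rno-miR-322-3p, probe above background: tgttgcagcgcttC
rno-miR-542-3p, probe above background: tttcagttatcaatctgtcaC
rno-miR-450a-5p, probe above background: acattaggaacacatcgC
Without that last base, the signal stayed between -8.24 and -2.85 for miR-322-3p, between 2.81 and 9.76 for miR-542-3p and between -1.75 and 2.79 for miR-450a-5p, and no spot was well above background. With it, 63 of 68 spots of miR-322-3p, 54 of 66 of miR-542-3p and 68 of 68 of miR-450a-5p were. miR-542-3p was the least secure of the 4, with 3 of 9 spots well above background on the array of control replicate 1. The miR-450a-5p probe shares a run of 16 bases with miR-450b-5p and at most 10 with any other mature form of the table, so these 2 neighbours may share its signal, which was not tested.

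miR-503-5p and miR-351-5p had no measurable level. miR-503-5p carries a seed close to that of miR-16, and miR-351-5p is a relative of miR-125. Their 6 probes gave 42 array means from -6.03 to 8.07 intensity units, and 0 of 270 spots were well above background, in control and IL-6 cultures alike. Any probe that did rise above background on an array gave at least 12.9. These 2 miRNAs are therefore described as not above background, with no fold change. The other strands of the hairpins, miR-503-3p, miR-351-3p and miR-450a-3p, were detected on no array, and miR-542-5p was detected on 3 arrays, control replicate 3 and IL-6 replicates 1 and 2.

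**Figure D2:**
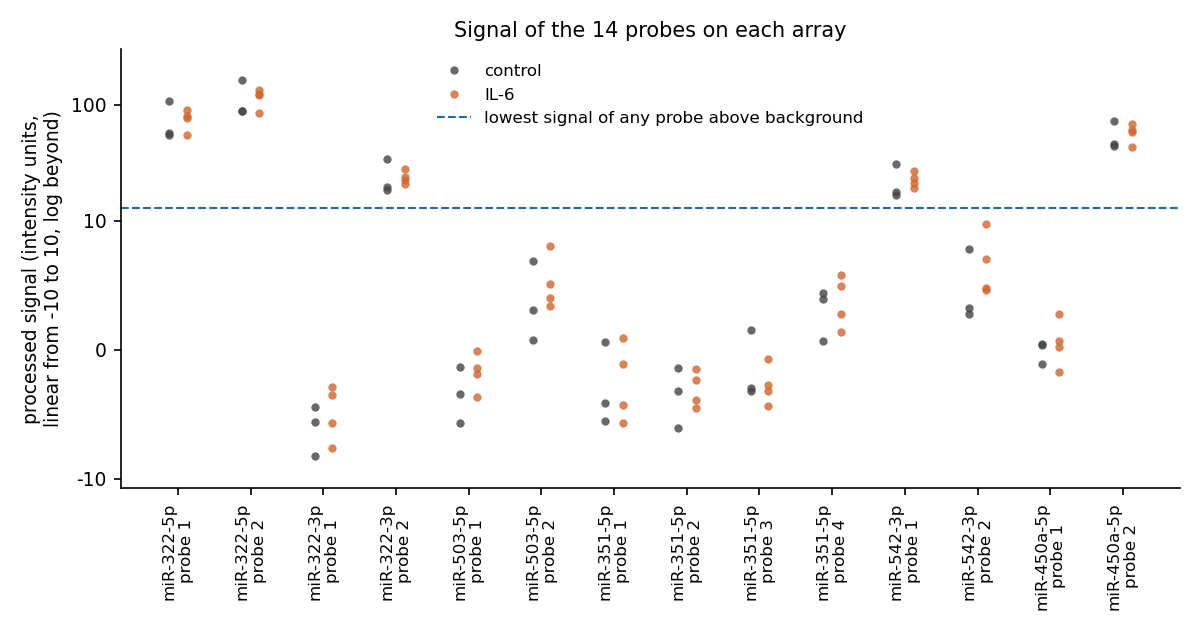
Processed signal of each of the 14 probes, with 1 point for each of 3 control arrays (grey) and 4 IL-6 arrays (orange); the axis is linear between -10 and 10 and logarithmic beyond. The dashed line marks 12.9, the weakest signal among probes above background, and every point of miR-503-5p and miR-351-5p lies under it.

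Over the series, Feature Extraction called 174 to 185 miRNAs detected on the control arrays and 179 to 207 on the IL-6 arrays. The 7 muscle-specific miRNAs (such as miR-1-3p, miR-133a-3p and miR-206-3p) were detected on no array, as were all 5 epithelial, 2 endothelial and 3 neural markers, and 1 of 5 blood markers was detected, on 1 array. Each of the 7 arrays detected all 5 miRNAs typical of fibroblasts and smooth muscle, with summed levels of 23367 to 25106 intensity units in control and 20799 to 24089 with IL-6. The labelled muscle cell type was thus not borne out by the muscle-specific miRNAs on these arrays. A further list held 11 miRNAs that rise in myoblast differentiation. Of these 9 were on the array under the listed names, and all 9 were detected on every array. miR-214-3p is on both that list and the fibroblast and smooth muscle list. All controls were in slide row 1 and all IL-6 arrays in row 2, and an effect of the row cannot be told apart from that of IL-6.

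Levels below are the signal of a miRNA's brightest probe, divided by the array's 75th percentile of reliably detected probes and brought back to intensity units. One array stood apart for the cluster: control replicate 3 had the highest level of all 7 arrays for each of the 4 measured members. The comparisons below are therefore given with and without it.

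miR-322-5p, the strand with the miR-16 seed, had a level of 103 in control replicate 1, 93.2 in replicate 2 and 162 in replicate 3. With IL-6 it had 95.4, 107, 114 and 116 in replicates 1 to 4. The IL-6 arrays lay inside the range of the controls, with 2 controls near the low end and 1 far above. The opposite strand of the same hairpin, miR-322-3p, had 23.1, 19.3 and 33.7 in the 3 controls and 23.3, 22.4, 22.2 and 21.5 with IL-6. Its 4 IL-6 values were nearly level, between control replicates 2 and 3.

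miR-542-3p, known to repress the cell division and survival protein survivin in human cells, had 19.5, 18.6 and 30.5 in the controls and 21.5, 21.6, 19.8 and 22.4 with IL-6. Here all 4 IL-6 arrays were above control replicates 1 and 2 and below replicate 3. miR-450a-5p, at the far end of the cluster, had 51.3, 48.2 and 72.9 in the controls and 49.4, 54.96, 56.4 and 54.8 with IL-6. The same control array was again the highest, and IL-6 replicate 1 lay between control replicates 2 and 1.

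**Figure D3:**
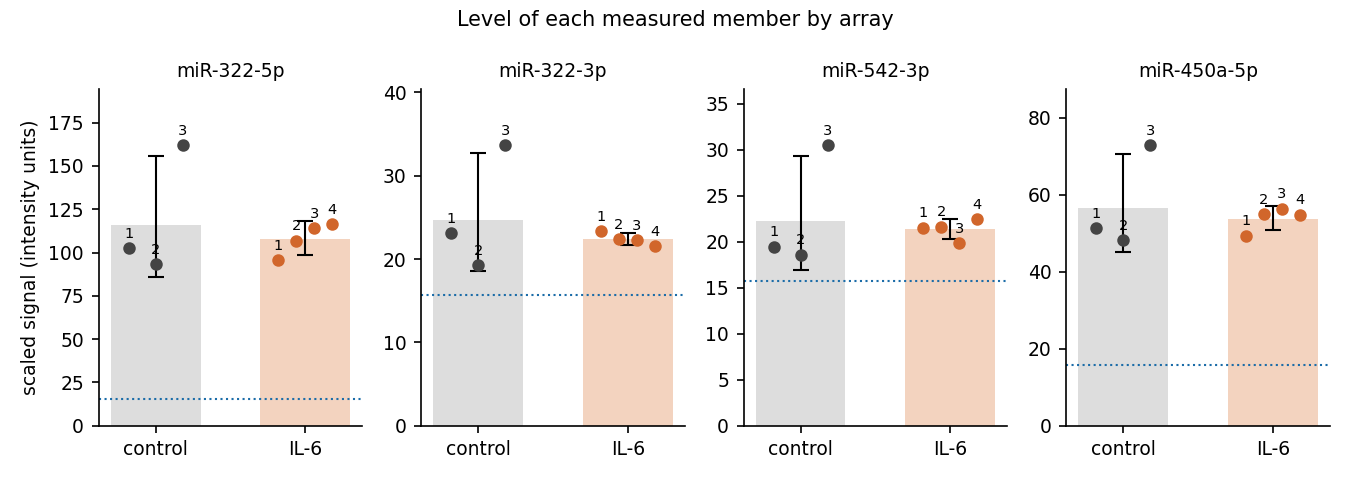
Scaled signal of the 4 measured members in intensity units, with 1 numbered point per array. Bars are group means on the log2 scale put back to intensity, error bars are 1 SD (3 control and 4 IL-6 arrays), and the dotted line is the floor of 15.7; control replicate 3 is the highest point in every panel.

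No measured member passed the test between IL-6 and control. For miR-322-5p the log2 fold change was -0.10 ± 0.20 (SE), a fold of 0.932 with a 95% interval of 0.665 to 1.31, and miR-322-3p had -0.14 ± 0.18, a fold of 0.907 (0.666 to 1.23). miR-542-3p had -0.06 ± 0.18, a fold of 0.959 (0.709 to 1.30), and miR-450a-5p had -0.07 ± 0.15, a fold of 0.953 (0.740 to 1.23). Adjusted p ran from 0.755 to 0.894 (limma, Benjamini-Hochberg over 181 tested miRNAs), no member had an unadjusted p under 0.05 (27.1% of all tested miRNAs did), and the exact two-sided permutation p over the 35 splits of the arrays ran from 0.657 to 0.914. Called members were 0 of 4, where 9.39% of all tested miRNAs were called, and groups without overlap were 0 of 4, where 22.1% of all tested miRNAs had them. The median log2 fold change was -0.086 over the 4 members and 0.02 over all tested miRNAs. A change within these intervals, down to about 0.665-fold or up to 1.31-fold for miR-322-5p, is not excluded by these arrays.

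With all 7 arrays the spread of the members was larger among the controls. The SD of the log2 level was 0.43 in control and 0.13 with IL-6 for miR-322-5p, 0.41 and 0.05 for miR-322-3p, 0.40 and 0.07 for miR-542-3p, and 0.32 and 0.09 for miR-450a-5p. In spread within groups the 4 members ranked 5, 9, 10 and 13 of 181 from the highest. Both depended on control replicate 3. Without it the SD of the other 2 controls was 0.097 for miR-322-5p, 0.047 for miR-542-3p and 0.063 for miR-450a-5p, each below that of the IL-6 arrays, and 0.18 for miR-322-3p, above it. The ranks of miR-322-5p, miR-322-3p, miR-542-3p and miR-450a-5p were then 47, 75, 121 and 99 of 181. The median SE of a fold change over all tested miRNAs was 0.07, against 0.15 to 0.20 for the members. The miR-322-5p level of control replicate 3 was 1.66 times the geometric mean of the other 2 controls. For the other members the ratio was 1.60-fold for miR-322-3p, 1.61-fold for miR-542-3p and 1.47-fold for miR-450a-5p.

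Without control replicate 3, the sign of all 4 fold changes turned. The log2 fold change of miR-322-5p was then 0.14 ± 0.10, that of miR-322-3p 0.083 ± 0.080, that of miR-542-3p 0.17 ± 0.06 and that of miR-450a-5p 0.11 ± 0.06. None passed (limma, Benjamini-Hochberg adjusted p from 0.123 to 0.566), though miR-542-3p had an unadjusted p of 0.0306. With IL-6 replicate 1 left out as well, miR-322-5p had 0.20 ± 0.06, miR-450a-5p 0.16 ± 0.04, miR-542-3p 0.16 ± 0.06 and miR-322-3p 0.06 ± 0.09. Again none of the 4 passed (limma, Benjamini-Hochberg adjusted p from 0.0551 to 0.658), where 17.1% of all tested miRNAs were called in that smaller set of arrays (11% higher and 6.08% lower). Unadjusted limma p was 0.0332 for miR-322-5p, 0.0122 for miR-450a-5p, 0.0644 for miR-542-3p and 0.513 for miR-322-3p. The sign of the estimate thus depended on control replicate 3, but not on that array alone. With every array kept, it also turned positive for all 4 members under alternatives described at the end. These were no scaling, spike-in scaling and array weights. Array weights counted control replicate 3 at 0.526 and IL-6 replicate 1 at 0.277, and the other arrays at 1.03 to 2.32. That setting therefore does not show a turn apart from control replicate 3. The median over all tested miRNAs was 0.17 with no scaling and 0.19 with spike-in scaling, above every member. No direction is given for the cluster.

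Slide position was recorded in the files. With slide column as a block the log2 fold changes were -0.10 for miR-322-5p, -0.14 for miR-322-3p, -0.07 for miR-542-3p and -0.08 for miR-450a-5p. IL-6 replicate 2 was alone in its column and so had no part in any fold change of that setting. The values equal those from leaving that array out. Within a column, 1 IL-6 array can be set against 1 control. In column 3 the IL-6 array was higher for all 4 members, by 0.10 to 0.29 on the log2 scale, and in column 1 the differences ran from -0.10 to 0.15. In column 4, which held control replicate 3, they ran from -0.65 to -0.41. IL-6 replicate 4, in the same column, was the second highest of the 7 arrays for miR-322-5p and miR-542-3p and the second lowest for miR-322-3p.

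**Figure D4:**
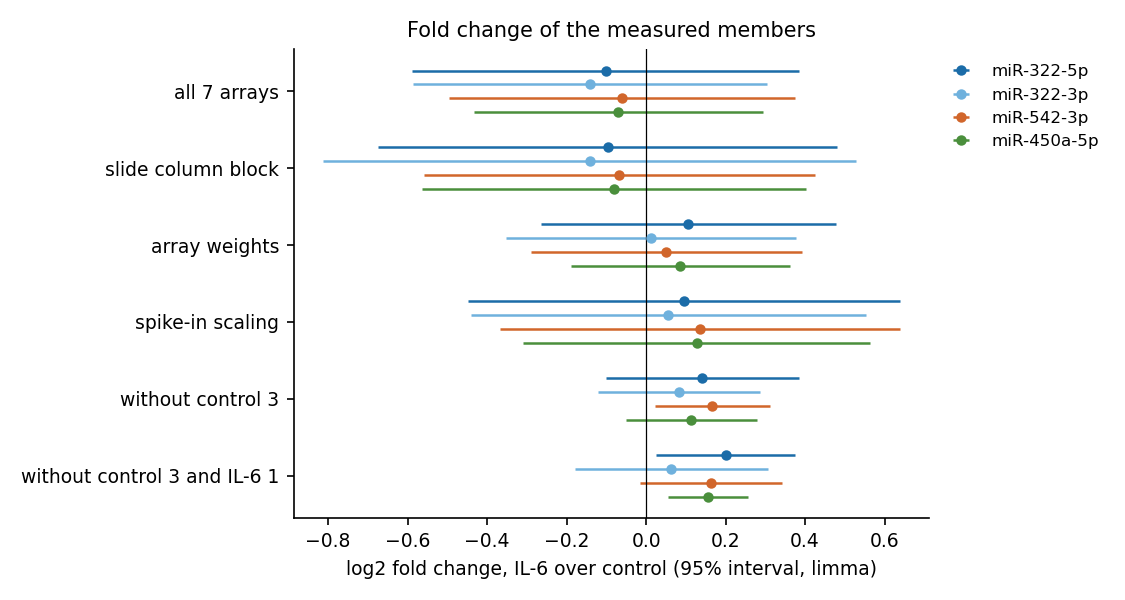
Log2 fold change of IL-6 over control for the 4 measured members, with 95% intervals from limma, for all 7 arrays and 5 other settings. Every estimate is below 0 in the main setting with all 7 arrays and with the slide column block. Every estimate is above 0 with array weights, with spike-in scaling and in both settings without control replicate 3. No member passed in any of these settings.

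The excess in control replicate 3 was shared along the cluster. Among 168 miRNAs detected on every array, the difference of that array from the median of the other 6 was 0.63 on the log2 scale for miR-322-5p, 0.59 for miR-322-3p and 0.56 for miR-542-3p, the 3 highest of all. miR-450a-5p ranked 6 with 0.46, after miR-129-1-3p (0.51) and miR-129-2-3p (0.51), which were named after their values were seen. The median over the 168 miRNAs was 0.02. The scale factor of that array was 1.00, inside the range of 0.852 to 1.25 over the 7 arrays. The unscaled signals of the 4 members were highest there as well.

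Members were nearest to each other among all tested miRNAs. Likeness was measured as the root mean square (RMS) difference of 2 miRNAs' log2 levels over the 7 arrays, each taken relative to its own mean. For miR-322-5p the nearest of 180 other miRNAs was miR-450a-5p (0.07), then miR-542-3p (0.11) and miR-322-3p (0.12), against a median of 0.25 over all others. For each of the other 3 members, too, the first 3 places were held by the other members. The nearest miRNAs from outside the cluster were miR-140-5p (0.17) and miR-598-3p (0.17) for miR-322-5p, miR-219a-5p (0.17) and miR-140-3p (0.17) for miR-322-3p, miR-219a-5p (0.14) and miR-140-3p (0.15) for miR-542-3p, and miR-199a-3p (0.12) and miR-140-5p (0.12) for miR-450a-5p. miR-199a-3p is on the fibroblast and smooth muscle list, and its part in the result was not tested.

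That likeness rested mostly on control replicate 3. Without it, miR-450a-5p was still the nearest miRNA to miR-322-5p, with an RMS difference of 0.05, and 3 miRNAs lay nearer to miR-450a-5p than miR-322-5p did. The 2 arms of the Mir322 hairpin did not keep a close rank: 94 other miRNAs were nearer to miR-322-5p than miR-322-3p was, with an RMS difference of 0.13 where the median was 0.13. The SD of the members' log2 levels over arrays fell from 0.20 to 0.27 with all 7 arrays to 0.09 to 0.13 without that one.

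**Figure D5:**
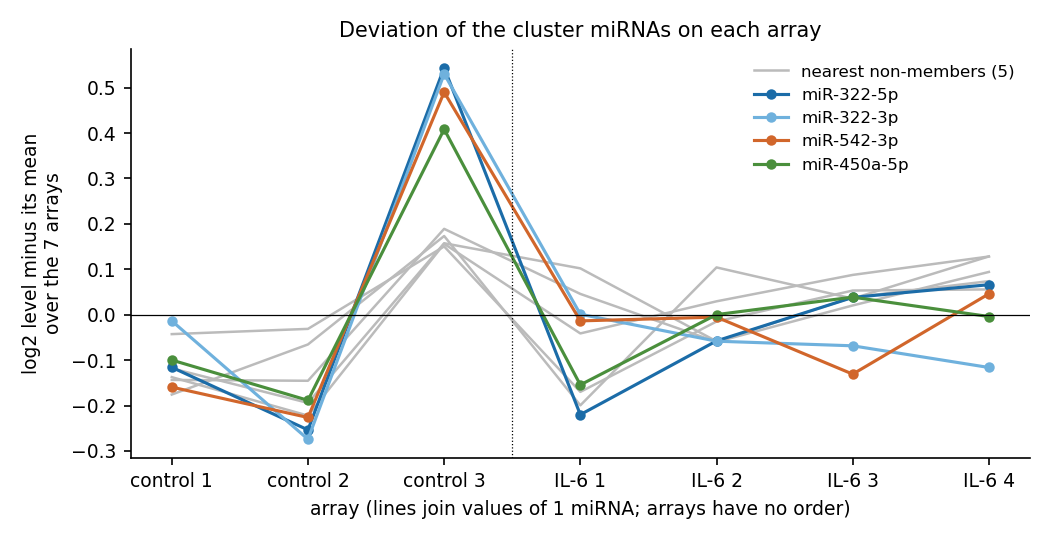
Log2 level minus its own mean over the 7 arrays for the 4 measured members (coloured) and for the 5 miRNAs nearest to them from outside the cluster (grey). The members reach 0.41 to 0.54 on control replicate 3 and the grey lines 0.15 to 0.19, while the members lie within -0.27 to 0.07 on the other arrays.

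No difference between members in their response to IL-6 was detected. The log2 difference of 2 members on 1 array does not depend on the scaling, so it was compared between the groups for all 6 pairs. The difference of fold changes was largest between miR-322-3p and miR-542-3p (-0.08 ± 0.07 SE, 95% interval -0.27 to 0.11), and leaving out 1 array moved it between -0.13 (without control replicate 2) and -0.031 (without control replicate 1). Between the 2 arms of the Mir322 hairpin, 5p minus 3p, it was 0.04 ± 0.11 (-0.24 to 0.32). Exact two-sided permutation p ran from 0.371 to 0.943 over the 6 pairs, and from 0.926 to 0.943 after Benjamini-Hochberg adjustment, where the smallest p that 35 splits allow is 0.0286. A single pair at that smallest p is adjusted to 0.171, so that 1 pair alone could not pass. The tightest pair was miR-322-5p with miR-450a-5p, which lie at opposite ends of the cluster, at -0.03 ± 0.06 (-0.19 to 0.13). Without control replicate 3 that difference was 0.027 ± 0.049 (-0.11 to 0.16), the one between the arms of Mir322 0.058 ± 0.137 (-0.32 to 0.44), and the one between miR-322-3p and miR-542-3p -0.083 ± 0.094 (-0.34 to 0.18). Differences inside these intervals are not excluded.

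Other miRNAs carry the seeds of miR-322-5p and miR-351-5p. The log2 fold change was 0.07 ± 0.06 for miR-16-5p and 0.24 ± 0.11 for miR-15b-5p, and neither passed (limma, Benjamini-Hochberg adjusted p = 0.599 and 0.253). Without control replicate 3 the values were 0.10 ± 0.07 and 0.35 ± 0.10, and neither passed. miR-15b-5p passed when IL-6 replicate 1 was left out as well (0.42 ± 0.03, limma, Benjamini-Hochberg adjusted p = 0.00786). Their relatives miR-195-5p and miR-497-5p were detected on no array, and miR-15a-5p was not analysed here. miR-125b-5p had -0.04 ± 0.03 and miR-125a-5p -0.0060 ± 0.0280 (-0.063 and 0.00060 without control replicate 3), so that the miR-351 seed was represented on these arrays by both miR-125 forms while miR-351-5p itself was not above background. Of 9 tested miRNAs from a list of those that rise in myoblast differentiation, 1 rose, miR-181a-5p (0.31 ± 0.06, limma, Benjamini-Hochberg adjusted p = 0.0240), and none fell, where 4.97% of all tested miRNAs rose and 4.42% fell. The call of miR-181a-5p was lost under 14 of the 26 alternatives described at the end. Among these were slide column as a block (0.34 ± 0.03, limma, Benjamini-Hochberg adjusted p = 0.0509) and leaving out control replicate 3 (0.30 ± 0.07, adjusted p = 0.0647). Quantile normalization was another (0.23 ± 0.10, limma, Benjamini-Hochberg adjusted p = 0.243). The estimate for miR-181a-5p stayed above 0 under all 26, from 0.17 to 0.51. Within columns 1, 3 and 4 its IL-6 array was higher by 0.39, 0.35 and 0.30 on the log2 scale. miR-24-3p of that list had -0.10 ± 0.03, and -0.12 ± 0.03 without control replicate 3, and passed in neither.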

How the data were processed

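Total RNA (integrity number 9.5 to 10.0) carried a Cy3 label on Agilent 1-colour rat miRNA arrays, per the labels' protocols. Spot intensities in the deposited files come from Agilent Feature Extraction 10.10.1.1, per the submitters' processing notes. The value table, also deposited, matched the total probe signal on all 15095 spots of each array (tolerance 0.001), with medians from -1.35 to 0.10, so it is linear and unscaled.

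Control spots and 2.88% to 3.84% of the 14380 others, marked as outliers, were left out; none was saturated. Scaling divided each probe mean by the 75th percentile, on its array, of 268 probes well above background on all arrays (at least a share of 0.5 of spots), set to a floor of 15.7 units and put on the log2 scale. The miRNAs tested (181) had to be detected on all arrays of 1 group or of both, and limma 3.58.1 in R 4.3.3 compared the groups at a threshold of 0.05. The fit was tested on simulated data. All members are named, then list members past the threshold or of highest level, and the 2 nearest non-members of each. Members and lists were chosen with earlier results of these data known. The number of arrays limits the precision. Sequences are from RefSeq tables of GRCr8. Replicate numbers were not used to pair the samples in the main fit.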

Additional observations from a re-analysis of the deposited data

How the results depend on the processing

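The alternatives changed the scaling, background, probe summary, signal, floor, filter, test, block or arrays. Array weights were chosen after seeing the data. Called members were 0 under all 26 alternatives, where calls over all miRNAs ran from 0 to 47. No miRNA at all was called with the 75th percentile over all probes, no scaling, normexp, no filter or the slide column block. The same held without control replicate 1. In these settings 0 called members says nothing particular to the cluster. The lowest adjusted p of limma over them was 0.0888 for miR-322-5p, 0.369 for miR-322-3p, 0.0551 for miR-450a-5p and 0.123 for miR-542-3p. Log2 fold changes turned positive for miR-322-5p, miR-322-3p, miR-450a-5p and miR-542-3p with no scaling (0.076, 0.036, 0.11 and 0.12), spike-in scaling (0.096, 0.056, 0.13 and 0.14) and array weights (0.11, 0.012, 0.086 and 0.051). When both control replicate 3 and IL-6 replicate 1 were left out they were 0.20, 0.063, 0.16 and 0.16. The median of all tested miRNAs was 0.17 with no scaling and 0.19 with spike-in scaling, so the members lay below it there too. Normexp background with its offset gave 0.032 for miR-322-3p, 0.03 for miR-450a-5p and 0.069 for miR-542-3p, each below the median of 0.071 over all tested miRNAs. Total gene signal gave 0.048 for miR-542-3p, where that median was 0.036. The cause of these turns was not tested. Leaving out 1 array gave -0.26 to 0.14 for miR-322-5p, -0.32 to 0.083 for miR-322-3p, -0.18 to 0.11 for miR-450a-5p and -0.19 to 0.17 for miR-542-3p, with the highest of each from leaving out control replicate 3. With the floor doubled, miR-542-3p was at the floor on all arrays and has no value, and miR-322-3p was above it on control replicate 3 only.

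The exact test of member pairs says little on stability, since 1 pair alone cannot pass after adjustment with 7 arrays, and no pair can with fewer. miR-322-3p minus miR-542-3p reached the smallest p with normexp (-0.037 ± 0.014, interval -0.072 to -0.0025, exact permutation p = 0.0286, adjusted 0.171), and was -0.19 with total gene signal. The difference of miR-322-3p minus miR-450a-5p turned to 0.0021 with normexp and 0.036 with the doubled floor. miR-322-5p minus miR-322-3p turned to -0.063 with normexp, -0.023 with the mean of all probes, -0.067 with the doubled floor and -0.0026 with IL-6 replicates 3 and 4 averaged. With the doubled floor miR-322-3p was at the floor on every array but control replicate 3, so these 2 doubled-floor values say little about it. Without the pair of control replicate 3 and IL-6 replicate 1, miR-322-5p minus miR-450a-5p turned to 0.044 and miR-322-5p minus miR-542-3p to 0.037. Leaving out 1 array gave -0.015 to 0.12 for miR-322-5p minus miR-322-3p, -0.073 to 0.027 for miR-322-5p minus miR-450a-5p, -0.10 to 0.022 for miR-322-5p minus miR-542-3p, -0.036 to 0.067 for miR-542-3p minus miR-450a-5p, -0.13 to -0.031 for miR-322-3p minus miR-542-3p and -0.13 to -0.031 for miR-322-3p minus miR-450a-5p.

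The 17 limma calls over all miRNAs became 0 with the 75th percentile over all probes, with no scaling, with normexp, with no filter and with the slide column block, 34 with spike-in scaling, 5 with total gene signal, 11 with the doubled floor, 6 with IL-6 replicates 3 and 4 averaged, 31 without the pair of control replicate 3 and IL-6 replicate 1, and 47 with array weights. Leaving out 1 array gave 0 to 17 calls, with 0 without control replicate 1, 2 without control replicate 2, 5 without IL-6 replicate 3 and 6 without IL-6 replicate 4. With a replicate block 3 were called, and miR-322-5p had -0.14, miR-322-3p -0.12, miR-450a-5p -0.08 and miR-542-3p -0.08. These fold changes equal those without IL-6 replicate 4, whose number no control shares. Likewise the column block has the fold changes of leaving out IL-6 replicate 2, which without a block gave 15 calls. Deviations from group means of same-numbered arrays correlated across miRNAs at 0.56, -0.10 and 0.38. Arrays with unlike numbers correlated at -0.54 to 0.28. These values do not settle whether the numbers pair the samples, since control replicate 1 and IL-6 replicate 1 also share a slide column. Arrays of 1 slide column correlated at 0.56, 0.14 and 0.28. With no scaling and with spike-in scaling, miR-125a-5p turned to 0.17 and 0.19, miR-125b-5p to 0.13 and 0.15, and miR-24-3p to 0.076 and 0.095. miR-16-5p turned to -0.071 with the percentile over all probes. miR-125a-5p also turned to 0.0088 with the mean of all probes, 0.0077 with the column block, 0.0084 without the pair of arrays and 0.013 with array weights, and lay from -0.019 to 0.0077 when 1 array was left out. Dim signal limits miR-322-3p and miR-542-3p.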
